A study of Mus musculus with 15 samples.

Results

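The genes described here are 40 coagulation and complement genes whose products the hepatocyte, the main cell of the liver, makes and secretes into plasma. They were picked by gene symbol from a list chosen with earlier results of these data known. All 40 were found among the 23509 genes of each deposited table. By function they fell into 14 clotting genes, 8 genes of anticoagulation and fibrinolysis, and 18 complement genes.

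Clotting is a cascade of plasma proteases in which tissue factor or the contact system leads to the activation of prothrombin, and thrombin then turns fibrinogen into fibrin. Antithrombin, heparin cofactor II and the protein C and protein S pair restrain the cascade, while plasmin, made from plasminogen, dissolves fibrin. Complement starts by the classical, lectin or alternative route, the routes meet at C3, and the terminal components assemble a pore in the target membrane. Since the liver is the main source of these proteins, their plasma levels are used clinically as a measure of hepatocyte synthesis, and many of them are acute phase genes that respond to interleukin 6.

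Liver RNA came from 15 male C57BL/6 mice that differed in Aldh2 genotype and in diet. Aldh2 encodes the mitochondrial aldehyde dehydrogenase that clears acetaldehyde, the first product of ethanol oxidation, and the Aldh2-/- line came from the Shanghai Model Organisms Center; no tissue-specific promoter or Cre is named, so the loss is not confined to hepatocytes by the labels. The 4 groups were Aldh2-/- on an ethanol diet (n = 4), WT on an ethanol diet (n = 5), Aldh2-/- pair-fed a control diet (n = 3) and WT pair-fed a control diet (n = 3), and the design text calls the WT mice littermates. All 4 groups received carbon tetrachloride (CCl4, a hepatotoxin used to scar the liver) in olive oil by intraperitoneal injection, 2 times a week for 8 weeks, with death 24 h after the final dose. There was therefore no group free of CCl4, and the sample titles name CCl4 for the ethanol-fed groups only, although the treatment entries give it for all. The stated age of 8 to 10 weeks is read as the age at the start of the experiment at the latest, because the dosing itself took 8 weeks.

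Values are FPKM (fragments scaled to gene length and to library size, as deposited by the authors), which are per length and so allow levels of different genes to be compared. Per-library values are always given in the same order: Aldh2-/- 86, 89, 90 and 96 and WT 5, 6, 7, 11 and 12 on ethanol, then Aldh2-/- 1, 2 and 9 and WT 18, 20 and 19 pair-fed. Aldh2 itself averaged 10.4 FPKM in ethanol-fed Aldh2-/- and 634 FPKM in ethanol-fed WT livers (exact two-sided permutation p = 0.00794), and 6.75 against 290.0 FPKM pair-fed (exact p = 0.1, the smallest that 3 against 3 libraries allow), so every library matched its label. The relative depth of the libraries lay between 90.0% and 111.0% of their mean. Genes encoded by mitochondrial DNA took 15.2% to 24.2% of summed FPKM in pair-fed WT livers and 6.90% to 10.8% in pair-fed Aldh2-/- livers, without overlap. On ethanol that share was highest in WT 5 (13.6%) and Aldh2-/- 90 (18.2%). WT 5 also stood apart from the other ethanol-fed WT livers in several members, so results on ethanol are also given without it and Aldh2-/- 90 where that changes them. In whole liver, fewer cells of a type and less RNA per cell cannot be told apart. Nothing beyond the mouse numbers says how the libraries were made from each animal, and p-values measure the spread between these 15 libraries.

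All 40 members were expressed in every library. Fgb, the fibrinogen beta chain, was the most abundant, with a mean of 2119.9 FPKM over the 15 libraries, and Masp1, a protease of the lectin pathway, the least, with 6.23 FPKM. The group means of Serpinc1 (antithrombin) differed by a factor of only 1.09 between the highest and the lowest group. That factor was 3.53 for Pros1 (protein S), 3.31 for Klkb1 (plasma prekallikrein), 3.25 for Mbl2 (mannose-binding lectin C) and 3.11 for F13b (the carrier subunit of factor XIII). Those 4 genes belong to 4 different roles, and the heat map of all members shows that no single library or group was high or low throughout.

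**Figure D1:**
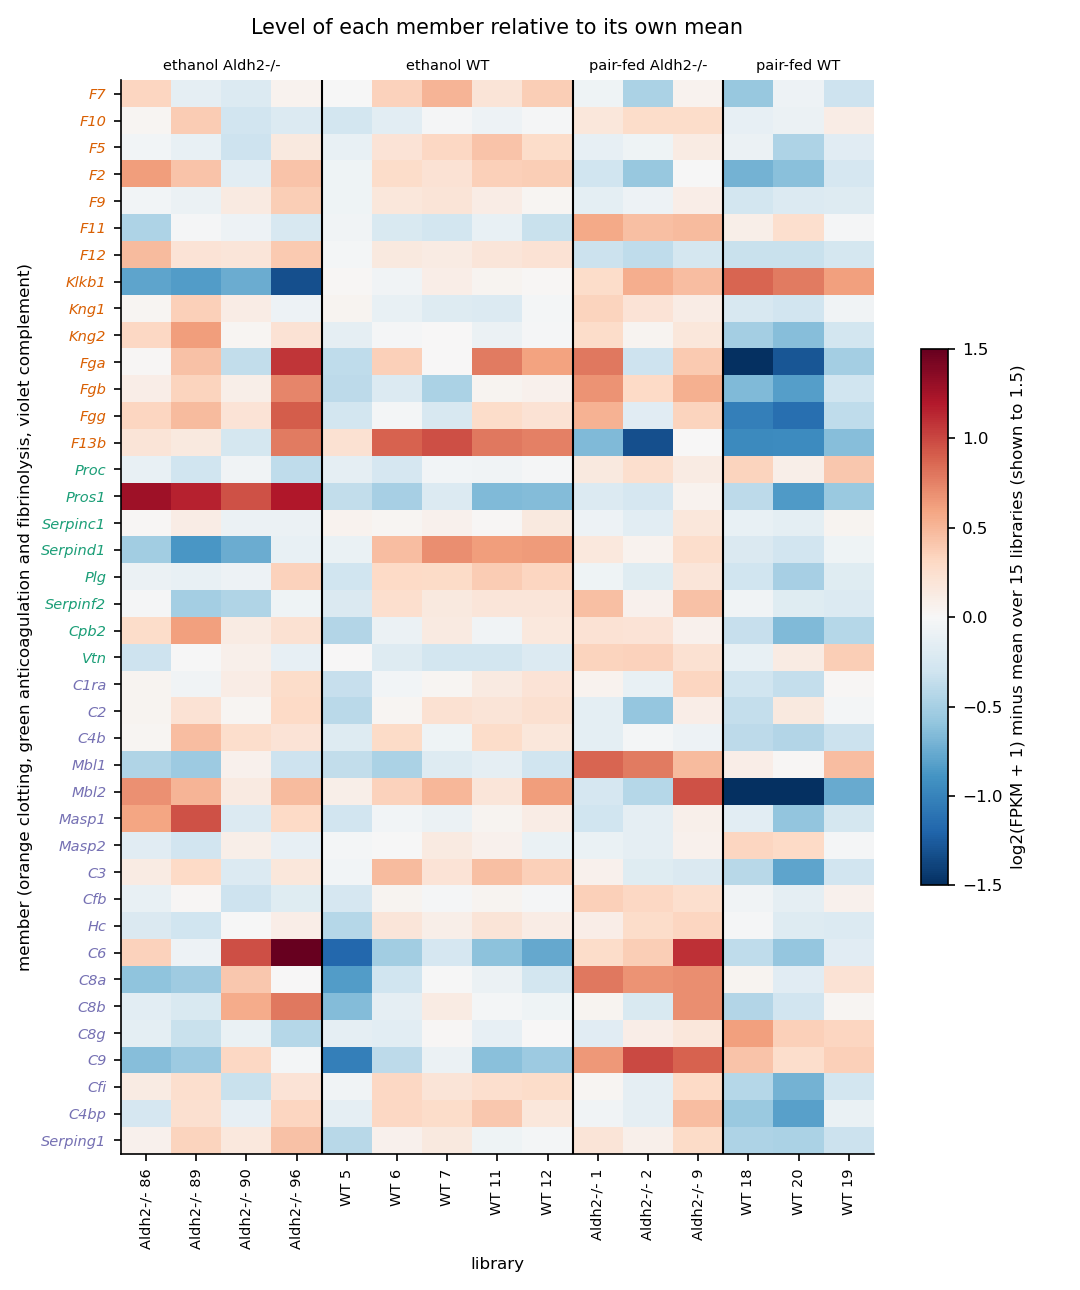
Level of each of the 40 members (rows) in each of the 15 libraries (columns, with black lines between the 4 groups), as log2(FPKM + 1) minus the mean of that gene over all libraries; colours are clipped at 1.5 in either direction. Pros1 is red in the ethanol-fed Aldh2-/- libraries alone, Klkb1 runs from blue in those libraries to red in the pair-fed WT libraries, and Fga and Mbl2 are darkest blue in pair-fed WT.

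Each comparison was fitted with limma on log2(FPKM + 1), and a gene was called at a Benjamini-Hochberg adjusted p under 0.05 over all genes tested. Between genotypes on ethanol, 4 of 40 members were higher in Aldh2-/- (Pros1, C6, Fgb and Kng2) and 2 were lower (Klkb1 and Serpind1), where 21.5% of all 11013 genes tested were called higher and 15.7% lower (37.2% in all). The median log2 difference of the members was 0.05, against 0.04 for all genes. Pair-fed, 15 of 40 members were called higher in Aldh2-/- and 0 lower, where 26.0% of 11138 genes were called higher and 2.41% lower (28.4% in all). Here the members' median was 0.36 and that of all genes 0.26. The 15 were Fga, Mbl2, Fgb, Fgg, C6, C8a, Cpb2, Kng2, Serping1, Cfi, Mbl1, C9, Serpinf2, Kng1 and F11.

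The pair-fed calls rested on the scaling of the libraries. Median-ratio rescaling took the median of all genes from 0.26 to 0.01 and left 0 members higher and 3 lower (C8g, Klkb1 and Masp2), while quantile normalization left 4 higher (Fgb, Cpb2, Kng2 and Serping1) and 1 lower (Klkb1), and a common sum without mitochondrial genes 9 higher and 1 lower (C8g). They also rested on single libraries: 1 member (Fgb) stayed called without Aldh2-/- 1, 1 (Fgb) without WT 20, 5 without WT 18, 10 without Aldh2-/- 9, 11 without Aldh2-/- 2 and 14 without WT 19. The pair-fed groups are those that differed in mitochondrial share. Under the common sum without mitochondrial genes the median of all genes was 0.18, and 16.7% of them were called. The part of that share in these calls was not tested beyond this rescaling. The calls over all genes fell in the same settings, to 6.39% after median-ratio rescaling, 2.65% without Aldh2-/- 1 and 4.25% without WT 20, so these counts say nothing particular about the members. Counts on ethanol moved less, to 3 higher and 2 lower under each of those 3 rescalings. Without WT 5 and Aldh2-/- 90 they were 4 higher (Pros1, C6, Kng2 and Masp1) and 5 lower (Klkb1, Serpind1, F13b, F5 and Serpinf2), with 39.6% of all genes called.

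The interaction, the genotype difference on ethanol minus that pair-fed, was called higher for 1 member (Pros1) and lower for 8 (Serpind1, Fga, Mbl2, Serpinf2, C4bp, Cfi, Klkb1 and Cfb), where 8.06% of 11157 genes were called higher and 29.0% lower (37.1% in all). The median was -0.29 for the members and -0.22 for all genes. After median-ratio rescaling, which moved the median of all genes to 0.04, the calls were 4 higher (Pros1, F12, C8g and Masp2) and 1 lower (Serpind1). Calls numbered 4 without pair-fed WT 20, 5 without pair-fed Aldh2-/- 1, 5 without ethanol-fed WT 6, and 15 without WT 5 and Aldh2-/- 90. Pros1 and Serpind1 stayed called, in opposite directions, in 24 of 24 alternatives.

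**Figure D2:**
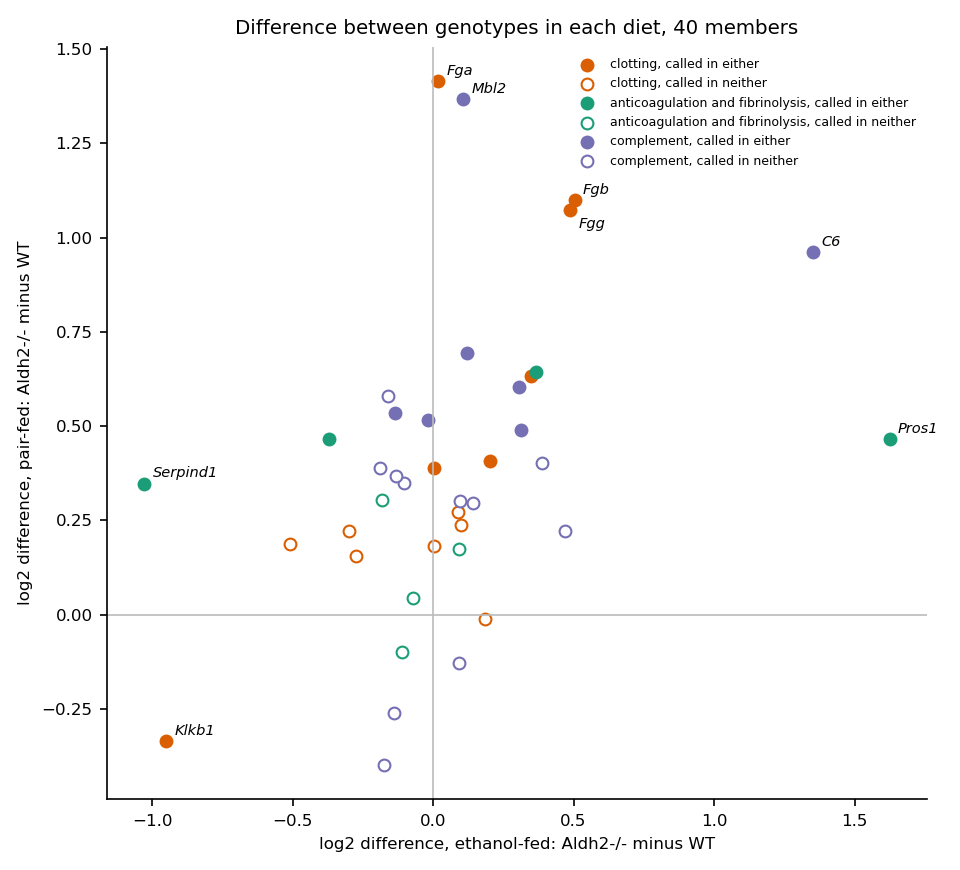
Log2 difference between Aldh2-/- and WT in the ethanol-fed livers (x axis) against that in the pair-fed livers (y axis), on the log2(FPKM + 1) scale, 1 point per member, coloured by class and filled where the member was called in either comparison. Pros1 lies far to the right and Serpind1 and Klkb1 to the left, while Fga and Mbl2 lie at the top near 0 on ethanol; 34 of 40 points lie above 0 pair-fed as deposited, and 22 of 40 after median-ratio rescaling.

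Among the clotting genes, the proteases that lead to thrombin gave 1 called genotype difference. Prothrombin (F2) averaged 796 ± 172 FPKM (SD, n = 4) in ethanol-fed Aldh2-/- and 732 ± 82.9 FPKM (n = 5) in ethanol-fed WT, a log2 difference of 0.10 ± 0.17 (SE, adjusted p = 0.666), and pair-fed the difference was 0.24 ± 0.18 (SE, adjusted p = 0.336), or -0.10 after median-ratio rescaling. Factor VII (F7), which starts clotting when it meets tissue factor, differed by -0.28 ± 0.14 (SE, adjusted p = 0.138) on ethanol and by 0.16 ± 0.18 (SE, adjusted p = 0.522) pair-fed, the latter turning to -0.18 and -0.16 under median-ratio and quantile scaling. None of F2, F7, F5, F10 and F9 was called in either genotype comparison as reported, although F5 was called lower on ethanol without WT 5, without Aldh2-/- 96, and without WT 5 and Aldh2-/- 90 together. F11 was called in the pair-fed one, at 0.39 ± 0.12 (SE, adjusted p = 0.0441); that call was lost in each of the 6 fits that left out 1 library, with log2 values from 0.05 to 0.46 over the alternatives.

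The contact system, which starts clotting on charged surfaces and releases bradykinin, held the fall with the smallest adjusted p on ethanol. Klkb1 stood at 19.2, 18.7, 19.8 and 13.04 FPKM in the ethanol-fed Aldh2-/- livers and at 34.4, 32.8, 36.7, 34.9 and 34.6 FPKM in the ethanol-fed WT livers. Every Aldh2-/- value lay below every WT value, and the group means differed 1.96-fold, a log2 difference of -0.95 ± 0.12 (SE, adjusted p = 0.000453). Klkb1 stood at 41.5, 50.0 and 47.1 FPKM in the pair-fed Aldh2-/- livers and at 63.4, 59.3 and 52.8 FPKM in the pair-fed WT livers. The pair-fed groups did not overlap either, and their log2 difference was -0.33 ± 0.13 (SE, adjusted p = 0.0808), called lower after median-ratio and quantile rescaling only among the scalings tried. Klkb1 was thus lowest in the ethanol-fed Aldh2-/- group and highest in the pair-fed WT group. Its interaction was -0.62 ± 0.18 (SE, adjusted p = 0.0158); it lost that call under median-ratio and quantile scaling, with values from -0.69 to -0.26 over 24 alternatives, while the ethanol call held in 19 of 19. The gene lies at chr8:45266689-45294859 (GRCm38, minus strand), next to F11, the gene of the factor XI protease, and its exons overlap those of a second annotated gene on the same strand, so its values may include reads of that gene.

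Kininogen, the bradykinin precursor, has 2 near-identical genes in the mouse, between which reads may have been split. Kng2 was higher in Aldh2-/- in both diets, by 0.35 ± 0.12 (SE, adjusted p = 0.0457) on ethanol and 0.63 ± 0.14 (SE, adjusted p = 0.017) pair-fed, and Kng1 was called higher pair-fed, at 0.41 ± 0.13 (SE, adjusted p = 0.0492), beside 0.20 ± 0.12 (SE, adjusted p = 0.219) on ethanol. The ethanol call of Kng2 held in 2 of 9 fits without 1 library (without Aldh2-/- 90 or Aldh2-/- 96), with log2 values from 0.24 to 0.44. The pair-fed call of Kng1 held only without WT 19 among such fits, and that of Kng2 was lost without Aldh2-/- 1 or WT 20. Within libraries, Kng1 stood at 6.03 to 9.46 times Kng2. F12, the contact protease, differed by 0.18 on ethanol and -0.01 pair-fed, neither called.

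Fibrinogen is built from 3 chains whose genes lie together at chr3:83007724-83049863 (GRCm38, 42.1 kb), with Fgg and Fga on the plus strand and Fgb on the minus strand. The sequences before the RefSeq starts of these genes (GRCm38.p6) are shown because the chains moved together in the pair-fed livers, and those of Mbl2 and Pros1 because Mbl2 moved most among complement genes pair-fed and Pros1 most on ethanol. Capitals mark matches, on either strand, to 4 short motifs: GTTAAT (HNF1 half-site), CTGGGAA (interleukin 6 response core), TTGCNNAA (C/EBP) and TTCNNNGAA (STAT palindrome). The stretches are chr3:83026003-83026075 (plus strand) for Fga, chr3:83049864-83050013 (minus strand) for Fgb, chr3:83007574-83007723 (plus strand) for Fgg, chr19:30232778-30232927 (plus strand) for Mbl2 and chr16:62854157-62854306 (plus strand) for Pros1. That of Fga is shorter since GENCODE starts a transcript before the RefSeq start.
Fga: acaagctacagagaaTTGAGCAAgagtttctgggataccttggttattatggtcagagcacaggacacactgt
Fgb: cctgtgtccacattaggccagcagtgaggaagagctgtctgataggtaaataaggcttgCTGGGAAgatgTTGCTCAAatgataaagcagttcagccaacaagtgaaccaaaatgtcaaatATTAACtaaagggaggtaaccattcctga
Fgg: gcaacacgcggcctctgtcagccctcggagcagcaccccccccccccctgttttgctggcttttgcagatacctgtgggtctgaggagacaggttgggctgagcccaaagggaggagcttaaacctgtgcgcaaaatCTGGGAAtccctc
Mbl2: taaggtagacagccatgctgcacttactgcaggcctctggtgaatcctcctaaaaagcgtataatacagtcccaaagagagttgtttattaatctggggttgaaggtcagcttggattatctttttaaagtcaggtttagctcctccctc
Pros1: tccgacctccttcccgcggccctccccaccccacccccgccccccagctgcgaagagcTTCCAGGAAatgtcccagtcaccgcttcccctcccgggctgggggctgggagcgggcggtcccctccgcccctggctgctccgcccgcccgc
Fgb holds an HNF1 half-site 29 to 24 bases before its start, an interleukin 6 core at 91 to 85 and a C/EBP match at 80 to 73. Fgg holds an interleukin 6 core at 13 to 7, and Fga a C/EBP match at 135 to 128. Fga also holds an HNF1 half-site at 43 to 38 bases before its RefSeq start, beyond the end of the stretch shown. Pros1 holds a STAT match at 92 to 84, and Mbl2 none of the 4; no 2 of these matches overlap. In the 250 bases before the start, the HNF1 half-site was found in 9 of the 31 members with a RefSeq entry (29.0%) and in 6.5% of 27025 promoters. The C/EBP motif was found in 25.8% of members and 9.6% of promoters, the STAT palindrome in 19.4% and 7.2%, and the interleukin 6 core in 16.1% and 9.1%. These matches describe the letters only.

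In the pair-fed livers all 3 fibrinogen chains were higher in Aldh2-/-. Fgb stood at 3229, 2482 and 2924 FPKM in the pair-fed Aldh2-/- livers and at 1279, 1138 and 1635 FPKM in the pair-fed WT livers. The lowest Aldh2-/- liver lay above the highest WT liver, and the means differed 2.13-fold (log2 difference 1.10 ± 0.17 (SE, adjusted p = 0.00963)). Fga stood at 1263, 587 and 956 FPKM in the pair-fed Aldh2-/- livers and at 242, 299 and 514 FPKM in the pair-fed WT livers. Its groups did not overlap, although Aldh2-/- 2 came close to WT 19, and the difference was 1.41 ± 0.33 (SE, adjusted p = 0.0211). Fgg stood at 1816, 1126 and 1589.8 FPKM in the pair-fed Aldh2-/- livers and at 621, 579 and 967 FPKM in the pair-fed WT livers. Again the groups were apart, with a difference of 1.07 ± 0.24 (SE, adjusted p = 0.0186). Relative to the median of all genes the differences were 1.16 for Fga, 0.84 for Fgb and 0.82 for Fgg, and all 3 stayed above 0 under each of the 3 rescalings. The calls of Fga and Fgg were lost without Aldh2-/- 1, WT 18 or WT 20, and under median-ratio and quantile scaling, while that of Fgb was lost under median-ratio scaling only (adjusted p = 0.0503).

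On ethanol 1 of the 3 chains was called, and a difference between chains was not tested. Fga stood at 739, 990.3, 564 and 1543 FPKM in the ethanol-fed Aldh2-/- livers and at 562, 933, 734, 1251 and 1113 FPKM in the ethanol-fed WT livers. The groups overlapped fully, and the log2 difference was 0.02 ± 0.31 (SE, adjusted p = 0.972). Fgb stood at 2154, 2536, 2146 and 3348 FPKM in the ethanol-fed Aldh2-/- livers and at 1531, 1756, 1452, 2079 and 2110.0 FPKM in the ethanol-fed WT livers. Here the lowest Aldh2-/- liver was just above the highest WT liver, and the difference of 0.50 ± 0.18 (SE, adjusted p = 0.046) was called. Fgg stood at 1586, 1755, 1459 and 2365 FPKM in the ethanol-fed Aldh2-/- livers and at 1042, 1239, 1072, 1528 and 1467 FPKM in the ethanol-fed WT livers. A WT liver exceeded the lowest Aldh2-/- liver, and the difference was 0.49 ± 0.18 (SE, adjusted p = 0.052). The ethanol call of Fgb was lost under all 3 rescalings and in 6 of 9 fits without 1 library (kept without Aldh2-/- 90, WT 11 or WT 12), with log2 values from 0.36 to 0.58 over all 19 alternatives; it was also lost without WT 5 and Aldh2-/- 90 together. The interaction was called for Fga, at -1.40 ± 0.51 (SE, adjusted p = 0.0421), and not for Fgb (-0.60 ± 0.27, adjusted p = 0.09) or Fgg (-0.58 ± 0.31, adjusted p = 0.151). Of 15 fits without 1 library, the Fga interaction stayed called in 5 (without Aldh2-/- 96, WT 5, WT 7, Aldh2-/- 2 or WT 19), with values from -1.71 to -1.15, and it was also lost after median-ratio and common-sum scaling. Within libraries Fgg stood at 0.680 to 0.739 of Fgb in all ethanol-fed livers and at 0.454 to 0.592 in all pair-fed livers. Diet coincides with the deposited table, so in this and other comparisons across diets an offset between tables cannot be told apart from diet. The exons of Fgg overlap those of a non-coding gene on the other strand, and whether counting used strand is not given in the sources used here.

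F13b, the subunit that carries the fibrin cross-linking factor XIII in plasma, overlapped between genotypes in both diets. F13b stood at 40.2, 38.9, 29.0 and 60.9 FPKM in the ethanol-fed Aldh2-/- livers and at 41.2, 65.7, 69.2, 61.3 and 59.9 FPKM in the ethanol-fed WT livers. Only the highest Aldh2-/- liver, 96, reached the level of the WT livers other than WT 5, and the difference was -0.51 ± 0.21 (SE, adjusted p = 0.0761). F13b stood at 21.7, 13.5 and 35.1 FPKM in the pair-fed Aldh2-/- livers and at 17.6, 17.7 and 22.1 FPKM in the pair-fed WT livers. These groups overlapped, with a difference of 0.19 ± 0.29 (SE, adjusted p = 0.638). Without WT 5 and Aldh2-/- 90 the ethanol difference was called lower, as it was without WT 5 alone or Aldh2-/- 96 alone, and the pair-fed sign turned under median-ratio and quantile scaling.

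**Figure D3:**
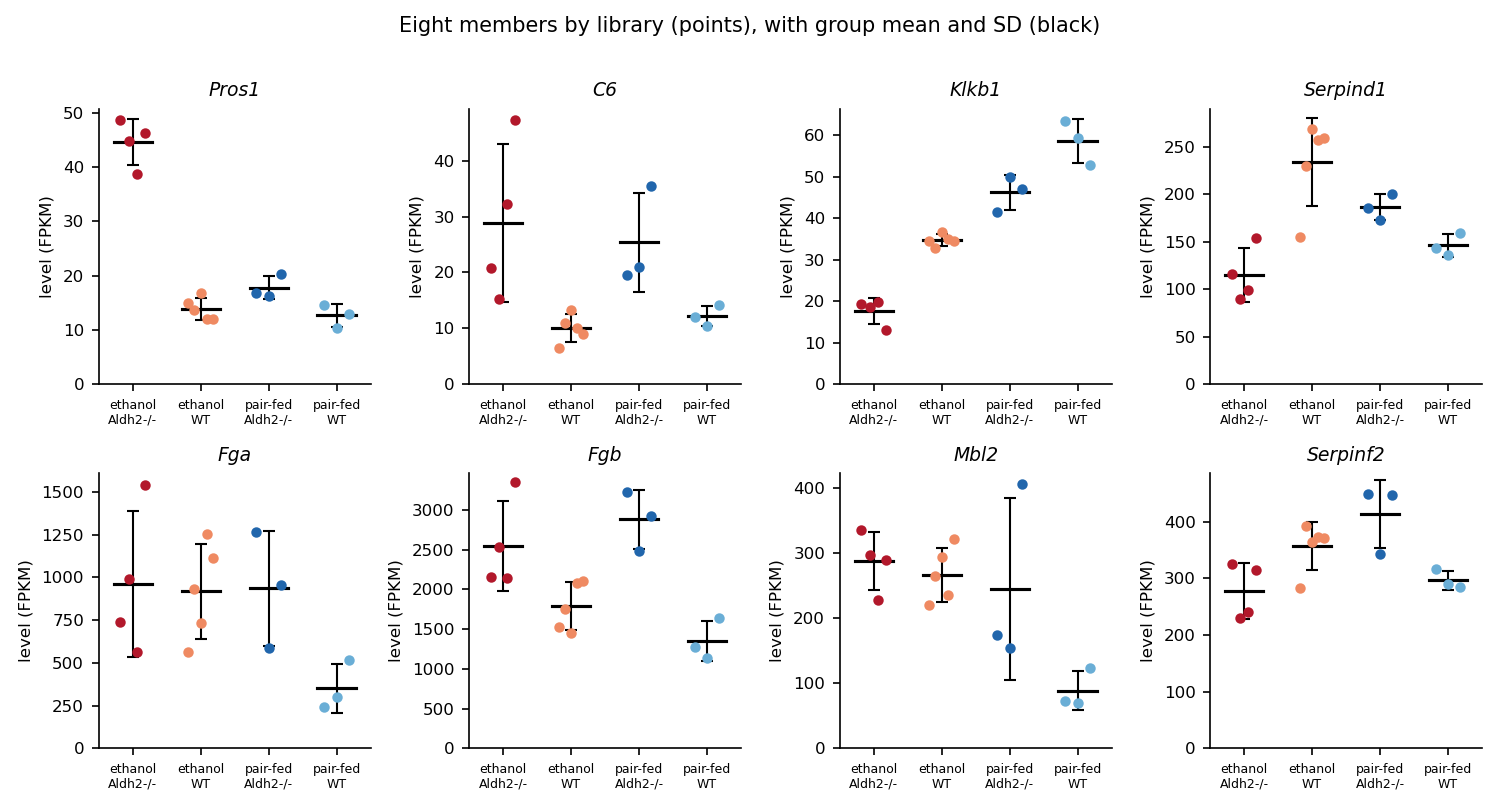
FPKM of 8 members in each of the 15 libraries (points), with the group mean and SD (black) of 4 and 5 ethanol-fed and 3 and 3 pair-fed livers of each genotype; every axis starts at 0. Pros1 is set apart in ethanol-fed Aldh2-/- livers, Klkb1 steps up from group to group, Serpind1 is highest in ethanol-fed WT, and Fga, Fgb and Mbl2 are lowest in pair-fed WT.

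Of the anticoagulants, protein S and heparin cofactor II moved in opposite directions in ethanol-fed Aldh2-/- livers. Protein S, encoded by Pros1 at chr16:62854307-62929346 (plus strand), is the cofactor of activated protein C and also a ligand of TAM receptors on phagocytes; besides hepatocytes, endothelial cells and macrophages make it. Pros1 stood at 48.7, 44.8, 38.8 and 46.3 FPKM in the ethanol-fed Aldh2-/- livers and at 14.9, 13.6, 16.8, 12.0 and 12.1 FPKM in the ethanol-fed WT livers. The groups lay far apart, and the means were 44.7 ± 4.21 FPKM and 13.9 ± 2.05 FPKM (SD), a 3.22-fold difference. On the log2 scale it was 1.62 ± 0.12 (SE, adjusted p = 3.44e-05). Pros1 stood at 16.8, 16.2 and 20.3 FPKM in the pair-fed Aldh2-/- livers and at 14.7, 10.4 and 12.97 FPKM in the pair-fed WT livers. These groups were close but did not overlap, and the difference was 0.47 ± 0.16 (SE, adjusted p = 0.0539). Pair-fed, Pros1 was called higher with the filter at 2 FPKM, in a joint fit of all 4 groups and with library weights. It was called under none of the 3 rescalings. The interaction was 1.16 ± 0.19 (SE, adjusted p = 0.000684), with values from 1.05 to 1.56 over the 24 alternatives.

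Markers of other cell types moved in the same livers. Of the Kupffer cell and macrophage markers, 8 of 9 tested were called higher in ethanol-fed Aldh2-/- livers, where the listed 10 summed to 370.6 to 779 FPKM against 167 to 201 FPKM in ethanol-fed WT. Of 8 endothelial markers 7 were higher (90.6 to 129.9 against 39.0 to 84.0 FPKM), and of 10 stellate cell and fibroblast markers 9 (235 to 442 against 113 to 245 FPKM). The 6 hepatocyte markers summed to 52594 to 64625 FPKM in Aldh2-/- and 65578 to 82891 FPKM in WT, without overlap, and of them Cyp3a11 alone was called, as lower. Alb made up most of that sum and itself overlapped, at 33370 to 46010 FPKM against 44432 to 61215 FPKM. Tat went the other way (0.97, not called), so the sum does not stand for each marker. Of markers tested, 3 of 5 cholangiocyte, 3 of 3 neutrophil, 1 of 2 lymphocyte and 5 of 5 blood and platelet markers were also higher. The neutrophil and lymphocyte lists held 6 genes each, and the rest were under the 0.5 FPKM limit on the mean of both groups. Ppbp (0.05 to 0.27 FPKM in ethanol-fed WT) and Nkg7 (0.11 to 0.36 FPKM) passed that limit only through the Aldh2-/- livers, which favours a call of higher. Pair-fed, 4 of 10 macrophage markers were higher (241 to 338 against 112 to 178 FPKM) and 2 of 10 stellate, 1 of 5 cholangiocyte, 1 of 3 neutrophil, 0 of 3 lymphocyte and 1 of 5 blood and platelet markers, while 1 of 8 endothelial and 2 of 6 hepatocyte markers (Cps1 and Cyp3a11) were lower. Over all genes, 21.5% were called higher and 15.7% lower on ethanol, and 26.0% and 2.41% pair-fed. The smaller pair-fed counts of higher markers were thus near or under that share. Ly6g, a neutrophil marker, was the single listed marker at 0 throughout a group, pair-fed WT. How much of the Pros1 difference, or of the differences in the other members, comes with these cells was not tested. Against protein C, its partner (Proc, 235 ± 25.6 FPKM and 254 ± 17.2 FPKM on ethanol, log2 difference -0.11 ± 0.11 (SE, adjusted p = 0.448)), Pros1 stood at 0.148 to 0.223 in the ethanol-fed Aldh2-/- livers and at 0.0360 to 0.0688 in all other livers.

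Heparin cofactor II, a thrombin inhibitor encoded by Serpind1 at chr16:17331371-17343575 (plus strand), went the other way. Serpind1 stood at 115, 89.9, 98.5 and 154 FPKM in the ethanol-fed Aldh2-/- livers and at 155, 229.6, 269, 257 and 259 FPKM in the ethanol-fed WT livers. The highest Aldh2-/- liver, 96, came just under the lowest WT liver, 5, and the other 4 WT livers were well above all Aldh2-/- livers. The means differed 2.04-fold, a log2 difference of -1.03 ± 0.20 (SE, adjusted p = 0.00283). Serpind1 stood at 185, 173 and 200.1 FPKM in the pair-fed Aldh2-/- livers and at 143, 136 and 159 FPKM in the pair-fed WT livers. Here Aldh2-/- livers were the higher ones on the scale as deposited, without overlap, at 0.35 ± 0.12 (SE, adjusted p = 0.0637). The interaction was -1.38 ± 0.27 (SE, adjusted p = 0.0018), with values from -1.53 to -1.01 over the 24 alternatives. The value of -1.01 was close to the ethanol difference alone, so the pair-fed rise depended on the setting. Antithrombin (Serpinc1), the main inhibitor of thrombin and factor Xa, differed by -0.07 ± 0.10 (SE, adjusted p = 0.61) on ethanol and 0.04 ± 0.14 (SE, adjusted p = 0.818) pair-fed (below 0 under each of the 3 rescalings, the lowest being -0.30), and its 15 values lay between 929 and 1165 FPKM. Set against antithrombin, Serpind1 was at 0.0799 to 0.158 in ethanol-fed Aldh2-/-, 0.143 to 0.248 in ethanol-fed WT, 0.172 to 0.187 in pair-fed Aldh2-/- and 0.1445 to 0.148 in pair-fed WT livers.

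In the fibrinolysis group, Serpinf2 (alpha-2-antiplasmin, the inhibitor of plasmin) differed between the diets in its response to genotype. Serpinf2 stood at 325, 230.1, 241 and 314 FPKM in the ethanol-fed Aldh2-/- livers and at 284, 392, 365, 374 and 372 FPKM in the ethanol-fed WT livers. The groups overlapped through WT 5, the lowest WT liver, and the log2 difference was -0.37 ± 0.15 (SE, adjusted p = 0.0689); without WT 5 and Aldh2-/- 90 it was called lower. Serpinf2 stood at 449, 343 and 447 FPKM in the pair-fed Aldh2-/- livers and at 316, 289 and 285 FPKM in the pair-fed WT livers. Here the Aldh2-/- livers were all above the WT livers, at 0.47 ± 0.14 (SE, adjusted p = 0.0431). The interaction of -0.84 ± 0.21 (SE, adjusted p = 0.00802) stayed called in 23 of 24 alternatives, the exception being median-ratio scaling. The pair-fed call was lost under all 3 rescalings and in 5 of 6 fits without 1 library, all but that without Aldh2-/- 2, with values from 0.13 to 0.59 over the 15 alternatives.

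Cpb2 stood at 249, 314, 223 and 239.5 FPKM in the ethanol-fed Aldh2-/- livers and at 150.4, 193, 225, 198 and 228 FPKM in the ethanol-fed WT livers. Cpb2 stood at 238, 237 and 215 FPKM in the pair-fed Aldh2-/- livers and at 161, 129 and 153 FPKM in the pair-fed WT livers. Cpb2, whose product TAFI trims fibrin and so protects the clot from plasmin, was higher in pair-fed Aldh2-/- livers without overlap, by 0.64 ± 0.13 (SE, adjusted p = 0.0149), and differed by 0.37 ± 0.15 (SE, adjusted p = 0.0772) on ethanol, where the groups overlapped. Its pair-fed call was lost without Aldh2-/- 1 or WT 20 and under median-ratio scaling. Plasminogen (Plg), the precursor of plasmin, differed by -0.18 ± 0.17 (SE, adjusted p = 0.414) on ethanol and 0.31 ± 0.15 (SE, adjusted p = 0.142) pair-fed (-0.04 after median-ratio rescaling), and vitronectin (Vtn), which stabilises the plasminogen activator inhibitor, by 0.09 and 0.18, with signs that changed under quantile scaling on ethanol and median-ratio scaling pair-fed; none of these was called. The exons of Plg overlap those of Slc22a3 on the other strand.

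Complement genes gave 1 call in 18 on ethanol, where 37.2% of all genes were called, and 7 in 18 pair-fed (28.4% of all genes), and those 7 calls were lost after median-ratio rescaling. The ethanol call was C6, a terminal component, at chr15:4727175-4814967 (plus strand). C6 stood at 20.7, 15.2, 32.3 and 47.3 FPKM in the ethanol-fed Aldh2-/- livers and at 6.53, 10.9, 13.3, 10.1 and 9.01 FPKM in the ethanol-fed WT livers. Every Aldh2-/- liver was above every WT liver, and the spread within Aldh2-/- was wide, from 15.2 to 47.3 FPKM. The means differed 2.89-fold, at 1.35 ± 0.29 (SE, adjusted p = 0.00513), and the call held in 19 of 19 alternatives. C6 stood at 19.6, 21.0 and 35.5 FPKM in the pair-fed Aldh2-/- livers and at 12.0, 10.4 and 14.1 FPKM in the pair-fed WT livers. This difference was 0.96 ± 0.22 (SE, adjusted p = 0.0205), again without overlap, and Aldh2-/- 9 was the highest pair-fed liver. The pair-fed call of C6 was lost without Aldh2-/- 1, WT 18 or WT 20, and under median-ratio and quantile scaling. The interaction of C6 was not called, at 0.39 ± 0.43 (SE, adjusted p = 0.494).

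The other terminal components did not move as a block. C8a stood at 37.7, 39.5, 76.8 and 58.0 FPKM in the ethanol-fed Aldh2-/- livers and at 31.9, 46.7, 57.4, 54.1 and 47.7 FPKM in the ethanol-fed WT livers. C8a stood at 100.5, 92.4 and 94.0 FPKM in the pair-fed Aldh2-/- livers and at 59.2, 51.1 and 67.0 FPKM in the pair-fed WT livers. C8a, the alpha chain of C8, overlapped between genotypes on ethanol (0.12 ± 0.23, adjusted p = 0.702) and was higher without overlap in pair-fed Aldh2-/- (0.69 ± 0.13, adjusted p = 0.0138). C8b stood at 42.5, 40.4, 70.3 and 83.4 FPKM in the ethanol-fed Aldh2-/- livers and at 30.0, 43.1, 52.2, 46.8 and 45.4 FPKM in the ethanol-fed WT livers. C8b stood at 48.9, 40.4 and 78.1 FPKM in the pair-fed Aldh2-/- livers and at 34.9, 38.7 and 48.6 FPKM in the pair-fed WT livers. C8b, the beta chain, overlapped in both diets, at 0.39 ± 0.23 (SE, adjusted p = 0.207) and 0.40 ± 0.24 (SE, adjusted p = 0.219). C8g, the gamma chain, stood lower in pair-fed Aldh2-/- without overlap but was not called (-0.40 ± 0.14, adjusted p = 0.0679), and C9, which forms the wall of the pore, was called higher there (0.49 ± 0.13, adjusted p = 0.0295). The call of C8a was lost without Aldh2-/- 1 or WT 20 and that of C9 in 5 of 6 fits without 1 library, all but that without WT 19. Within libraries C8a was at 0.343 to 0.466 of C8g in pair-fed Aldh2-/- and at 0.159 to 0.220 in pair-fed WT. C5, encoded by Hc, differed by -0.13 ± 0.15 (SE, adjusted p = 0.499) on ethanol and 0.37 ± 0.12 (SE, adjusted p = 0.0545) pair-fed. The pair-fed value of Hc ranged from 0.03 to 0.43 over the 15 alternatives and was called with the filter at 2 FPKM only.

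In the lectin pathway, which recognises sugars on microbes, Mbl2 showed the largest pair-fed difference among complement genes. Mbl2 stood at 174, 154 and 405 FPKM in the pair-fed Aldh2-/- livers and at 73.1, 69.2 and 123 FPKM in the pair-fed WT livers. Aldh2-/- 9 was far above its group, the other 2 Aldh2-/- livers still exceeded the highest WT liver, and the difference was 1.37 ± 0.37 (SE, adjusted p = 0.0299). Mbl2 stood at 335, 296, 228 and 289 FPKM in the ethanol-fed Aldh2-/- livers and at 220.2, 264, 293, 235 and 321 FPKM in the ethanol-fed WT livers. On ethanol the genotypes overlapped, and all 9 livers lay above every pair-fed WT liver; the genotype difference was 0.11 ± 0.15 (SE, adjusted p = 0.601). The interaction was -1.26 ± 0.39 (SE, adjusted p = 0.0214), and it was lost without WT 18 or WT 20 or after median-ratio rescaling (values from -1.52 to -0.83 over 24 alternatives); the pair-fed call was lost without either of these or without Aldh2-/- 1, and under median-ratio and quantile scaling. Mbl1 was called higher in pair-fed Aldh2-/- (0.52 ± 0.17, adjusted p = 0.0484), a call kept without Aldh2-/- 9 or WT 19 only among fits without 1 library, and differed by -0.02 on ethanol. Masp1 stood at 9.54, 12.5, 5.07 and 7.59 FPKM in the ethanol-fed Aldh2-/- livers and at 4.69, 5.76, 5.55, 6.18 and 6.52 FPKM in the ethanol-fed WT livers. Masp1 stood at 4.65, 5.35 and 6.35 FPKM in the pair-fed Aldh2-/- livers and at 5.24, 3.61 and 4.79 FPKM in the pair-fed WT livers. Masp1 overlapped in both diets, its highest values being Aldh2-/- 86 and 89, at 0.47 ± 0.20 (SE, adjusted p = 0.0856) and 0.22 ± 0.16 (SE, adjusted p = 0.307), the pair-fed sign turning under median-ratio and quantile scaling.

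C3, where the routes meet, differed by -0.19 ± 0.15 (SE, adjusted p = 0.345) on ethanol and 0.39 ± 0.17 (SE, adjusted p = 0.105) pair-fed. Its pair-fed value ranged from 0.05 to 0.54 over the 15 alternatives and was called with library weights only. Factor B (Cfb), the protease of the alternative pathway, was among the 4 complement genes with a called interaction. Cfb stood at 407, 447, 354 and 387 FPKM in the ethanol-fed Aldh2-/- livers and at 369.5, 452, 434, 452 and 437 FPKM in the ethanol-fed WT livers. Cfb stood at 564, 548 and 526 FPKM in the pair-fed Aldh2-/- livers and at 424, 400.1 and 462 FPKM in the pair-fed WT livers. It overlapped on ethanol and was higher in each pair-fed Aldh2-/- liver than in any pair-fed WT liver, with an interaction of -0.45 ± 0.16 (SE, adjusted p = 0.0335). Cfb and C2 share exons with a joint gene model, so their reads may have been split. The classical pathway genes C1ra, C2 and C4b were not called in either genotype comparison, with log2 differences from 0.09 to 0.14 on ethanol and from -0.13 to 0.30 pair-fed (C1ra and C4b just below 0 after median-ratio rescaling); C1ra and C4b have near-identical copies.

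The soluble complement regulators gave the other called interactions, Cfi and C4bp. Cfi stood at 362, 397, 264 and 384 FPKM in the ethanol-fed Aldh2-/- livers and at 321, 415, 382, 395 and 403 FPKM in the ethanol-fed WT livers. Cfi stood at 340.0, 303 and 409.6 FPKM in the pair-fed Aldh2-/- livers and at 247, 203 and 275 FPKM in the pair-fed WT livers. Cfi, the factor I protease that cuts C3b, overlapped on ethanol (-0.14 ± 0.14, adjusted p = 0.478) and was apart pair-fed (0.54 ± 0.16, adjusted p = 0.0432), with an interaction of -0.67 ± 0.22 (SE, adjusted p = 0.0292). C4bp stood at 185, 260.0, 202 and 276 FPKM in the ethanol-fed Aldh2-/- livers and at 202, 273, 267, 292 and 248 FPKM in the ethanol-fed WT livers. C4bp stood at 213, 201 and 305 FPKM in the pair-fed Aldh2-/- livers and at 149, 125 and 207 FPKM in the pair-fed WT livers. C4bp, the cofactor of factor I, overlapped in both diets (-0.16 ± 0.15, adjusted p = 0.438, and 0.58 ± 0.22, adjusted p = 0.0789), with an interaction of -0.74 ± 0.28 (SE, adjusted p = 0.0482). C1 inhibitor (Serping1), which also restrains kallikrein, was called higher in pair-fed Aldh2-/- at 0.60 ± 0.12 (SE, adjusted p = 0.0147) and differed by 0.31 ± 0.14 (SE, adjusted p = 0.103) on ethanol. The pair-fed calls of Serping1 and Cfi were lost without Aldh2-/- 1 or WT 20, and that of Cfi also without Aldh2-/- 9 or WT 18. Without 1 library, the Cfi interaction was lost for WT 6, Aldh2-/- 1, Aldh2-/- 9 and WT 20, the Cfb interaction was kept for Aldh2-/- 86, 89, 96 and 9, WT 5 and WT 19, and the C4bp interaction for Aldh2-/- 89, 96 and 2, WT 5 and WT 19. In these fits the values ranged from -0.77 to -0.54 for Cfi, -0.51 to -0.40 for Cfb and -0.94 to -0.56 for C4bp. Median-ratio rescaling ended all 3 interaction calls, common-sum scaling those of Cfb and C4bp, and quantile scaling that of C4bp, and over all 24 alternatives the values nearest to 0 were -0.31, -0.09 and -0.38.

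Ethanol was set against pair-feeding within each genotype, although diet coincides with the deposited table, so an offset between tables cannot be told apart from diet. In WT, 18 of 40 members were higher on ethanol and 6 lower, where 29.2% of 11157 genes were called higher and 11.9% lower (41.1% in all). In Aldh2-/-, 5 members were higher and 10 lower, where 17.6% of genes were called higher and 29.3% lower (46.9% in all). The members' median was 0.27 in WT and 0.00 in Aldh2-/-, and that of all genes 0.10 and -0.09. Median-ratio rescaling changed these splits to 7 higher and 8 lower in WT and to 7 and 7 in Aldh2-/-, with the median of all genes going from 0.10 to -0.04 and from -0.09 to 0.03. The WT calls numbered 15 without pair-fed WT 20. Both comparisons used all 4 groups for the spread.

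In WT livers the clotting genes made up 9 of the 18 rises. F13b rose 3.11-fold (1.57 ± 0.26, adjusted p = 0.000517) and Fga 2.61-fold (1.40 ± 0.35, adjusted p = 0.00569), with Fgg at 0.83 ± 0.22, adjusted p = 0.00695 and Fgb, not called, at 0.40 ± 0.18, adjusted p = 0.0932. Prothrombin rose by 0.76 (adjusted p = 0.00445) and F7 by 0.60 (adjusted p = 0.00845), beside F5, F9, F12 and Kng2. In complement, Mbl2 rose 3.02-fold (1.62 ± 0.27, adjusted p = 0.000513) and C3 1.72-fold (0.79 ± 0.16, adjusted p = 0.00157), beside C4b, Cfi, C4bp and Serping1, and in the anticoagulation and fibrinolysis class Serpind1, Plg and Cpb2 rose. The falls were Klkb1 (-0.74), C9 (-0.89), C8g (-0.51), Mbl1 (-0.49), Proc (-0.37) and F11 (-0.31). Serpinc1 (0.13) and Hc (0.17) were not called, and their signs turned under median-ratio rescaling. Among the 18 rises, median-ratio rescaling ended the calls of F7, F5, F9, F12, Kng2, Serpind1, Plg, Cpb2, C4b, C4bp and Serping1. Quantile scaling also ended those of F5, F9 and Cpb2, and common-sum scaling ended the fall of F11. Of the 24 calls, those of F2, F12, F13b, Klkb1, Fga, Fgg, C3, C4b, Mbl2, C8g, C9 and Cfi held whichever library was left out. F7 was lost without pair-fed WT 18, F5, Serpind1, Plg and C4bp without WT 20, Kng2 without either, Mbl1 without WT 19, and Proc without WT 18 or WT 19. F9, F11, Cpb2 and Serping1 were kept in 8, 10, 9 and 8 of the 15 fits without 1 library; the losses came with a WT library other than WT 5 left out, and for Serping1 also with Aldh2-/- 1.

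In Aldh2-/- livers the rises were Pros1 (1.28 ± 0.14, adjusted p = 5.97e-06), F13b (0.87), F12 (0.64), F2 (0.62) and Masp1 (0.53). Klkb1 fell most, 2.61-fold (-1.35 ± 0.13, adjusted p = 2.06e-06), followed by C9 (-1.07), Mbl1 (-1.02), C8a (-0.90), Serpind1 (-0.72), F11 (-0.70), Serpinf2 (-0.58), Cfb (-0.46), Vtn (-0.40) and Proc (-0.38). Fga (0.00), Fgb (-0.19), C3 (0.21), Mbl2 (0.36), F7 (0.17), Plg (0.04), Hc (-0.34) and Serpinc1 (0.01) were not called, and Fga turned to -0.06 under quantile scaling. Of these calls, F2 and Proc were lost without Aldh2-/- 2, F13b without Aldh2-/- 2 or 96, and Vtn without Aldh2-/- 86, 1 or 2. Masp1 was kept in 4 of 15 fits without 1 library (without Aldh2-/- 90 or 9, WT 5 or WT 20), while the other 10 held in all such fits. Median-ratio rescaling ended the calls of Cfb, Proc and Vtn, and common-sum scaling those of Proc and Vtn. Serpind1 alone was called in opposite directions in the 2 genotypes, higher on ethanol in WT (0.65 ± 0.19, adjusted p = 0.0121) and lower in Aldh2-/- (-0.72 ± 0.20, adjusted p = 0.00686). The WT call was lost after median-ratio rescaling and without pair-fed WT 20, with 0.45 as the lowest value over the alternatives. The Aldh2-/- call held in 23 of 23 alternatives. Called in the same direction in both were F2, F12, F13b, F11, Klkb1, Proc, Mbl1 and C9. F10, Serpinc1, C1ra, C2, Masp2, Hc and C8b were called in none of the 5 comparisons.

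**Figure D4:**
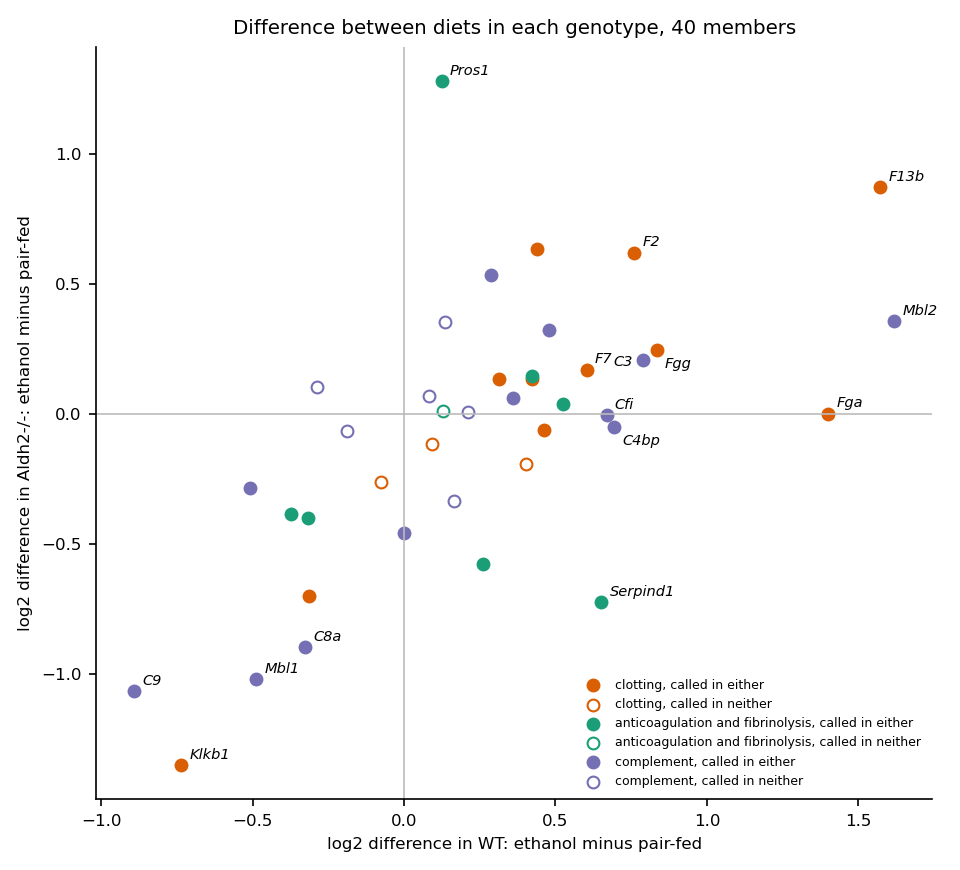
Log2 difference between ethanol-fed and pair-fed livers in WT (x axis) against that in Aldh2-/- (y axis), on the log2(FPKM + 1) scale, 1 point per member, coloured by class and filled where the member was called in either comparison. Klkb1, C9 and Mbl1 lie at the lower left, Fga and Mbl2 to the right near 0 in Aldh2-/-, Pros1 at the top, and Serpind1 at the lower right; diet coincides with the deposited table, and these positions are on the scale as deposited.

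Set side by side, the classes differed in weight and in spread. Clotting genes took 0.804% to 1.01% of the FPKM of genes not encoded by mitochondrial DNA in pair-fed WT livers, 1.21% to 1.65% in pair-fed Aldh2-/-, 1.13% to 1.56% in ethanol-fed WT and 1.38% to 2.08% in ethanol-fed Aldh2-/-, so that pair-fed WT lay below the other 3 groups. The fibrinogen chains dominate that sum. Anticoagulation and fibrinolysis genes took 0.847% to 1.01% in all 15 libraries, and the 4 groups overlapped. Complement genes took 0.563% to 0.626% in pair-fed WT and 0.659% to 0.899% in the other 3 groups. The calls in Aldh2-/- against WT pair-fed were 6 of 14 clotting, 2 of 8 anticoagulation and fibrinolysis and 7 of 18 complement genes; on ethanol they were 3, 2 and 1. Over all genes 28.4% were called pair-fed and 37.2% on ethanol; a difference between the classes was not tested, and the pair-fed counts rest on the scaling.

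Genes of the same pathways outside the module were listed too. These lists were also chosen with earlier results of these data known, so their counts describe the lists and are not tests. Several clotting proteases, protein C and protein S become active only after vitamin K-dependent carboxylation by Ggcx, vitamin K is recycled by Vkorc1 and Vkorc1l1, and Lman1 with Mcfd2 carries factor V out of the endoplasmic reticulum. Of the 7 genes of this list, 5 were lower in ethanol-fed Aldh2-/- livers and 0 higher, pair-fed 4 were higher and 1 lower, and in the interaction 4 were lower and 1 higher. Over all genes, 15.7% were called lower on ethanol, 26.0% higher pair-fed and 29.0% lower in the interaction. The ethanol and interaction counts were the same under each of the 3 rescalings, and the pair-fed ones fell to 0 higher and 1 lower under median-ratio and quantile scaling and to 1 and 0 without mitochondrial genes, so the pair-fed calls rested on the scaling. Ggcx stood at 1.69, 2.04, 2.81 and 3.47 FPKM in the ethanol-fed Aldh2-/- livers and at 4.23, 6.57, 6.03, 6.91 and 5.12 FPKM in the ethanol-fed WT livers. No Aldh2-/- liver reached the lowest WT liver, and the difference was -0.96 ± 0.17 (SE, adjusted p = 0.00177). Ggcx stood at 7.41, 6.64 and 7.28 FPKM in the pair-fed Aldh2-/- livers and at 4.90, 5.56 and 4.79 FPKM in the pair-fed WT livers. Pair-fed the order was the reverse, again without overlap, at 0.42 ± 0.12 (SE, adjusted p = 0.0343), and the interaction was -1.38 ± 0.23 (SE, adjusted p = 0.000659).

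Lman1 stood at 18.3, 21.4, 19.6 and 28.4 FPKM in the ethanol-fed Aldh2-/- livers and at 32.1, 38.3, 40.4, 40.2 and 36.2 FPKM in the ethanol-fed WT livers. Lman1 stood at 51.8, 55.5 and 46.9 FPKM in the pair-fed Aldh2-/- livers and at 28.6, 34.4 and 33.8 FPKM in the pair-fed WT livers. Lman1 was likewise lower in every ethanol-fed Aldh2-/- liver (-0.76 ± 0.13, adjusted p = 0.00177) and higher in every pair-fed one (0.66 ± 0.13, adjusted p = 0.0141), with an interaction of -1.42 ± 0.19 (SE, adjusted p = 0.000189). Mcfd2 gave -0.54 ± 0.11, adjusted p = 0.00311 on ethanol, 0.48 ± 0.14, adjusted p = 0.0365 pair-fed and an interaction of -1.02, and Vkorc1l1 -0.43 ± 0.12, adjusted p = 0.0161, 0.46 ± 0.13, adjusted p = 0.0325 and -0.89. Vkorc1 was lower on ethanol (-0.38 ± 0.12, adjusted p = 0.0246) and was not called pair-fed (0.05 ± 0.13, adjusted p = 0.797, with the sign turning under each of the 3 rescalings). Aifm2, which also reduces vitamin K, was lower in pair-fed Aldh2-/- (-0.48 ± 0.15, adjusted p = 0.0489), with an interaction of 0.71 ± 0.18 (SE, adjusted p = 0.00813). The interactions of Ggcx, Lman1, Mcfd2, Vkorc1l1 and Aifm2 stayed called in 24 of 24 alternatives and the ethanol calls of Ggcx, Lman1 and Mcfd2 in 19 of 19. The ethanol call of Vkorc1l1 held in 18 of 19 and that of Vkorc1 in 15 of 19, lost without Aldh2-/- 90, WT 7 or WT 12 among fits without 1 library. The pair-fed call of Ggcx held in 3 of 15 alternatives and in 0 of 6 fits without 1 library, although its direction was kept in 15 of 15. For Mcfd2, Vkorc1l1, Aifm2 and Lman1 the pair-fed calls held in 5, 6, 7 and 12 of 15.

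**Figure D5:**
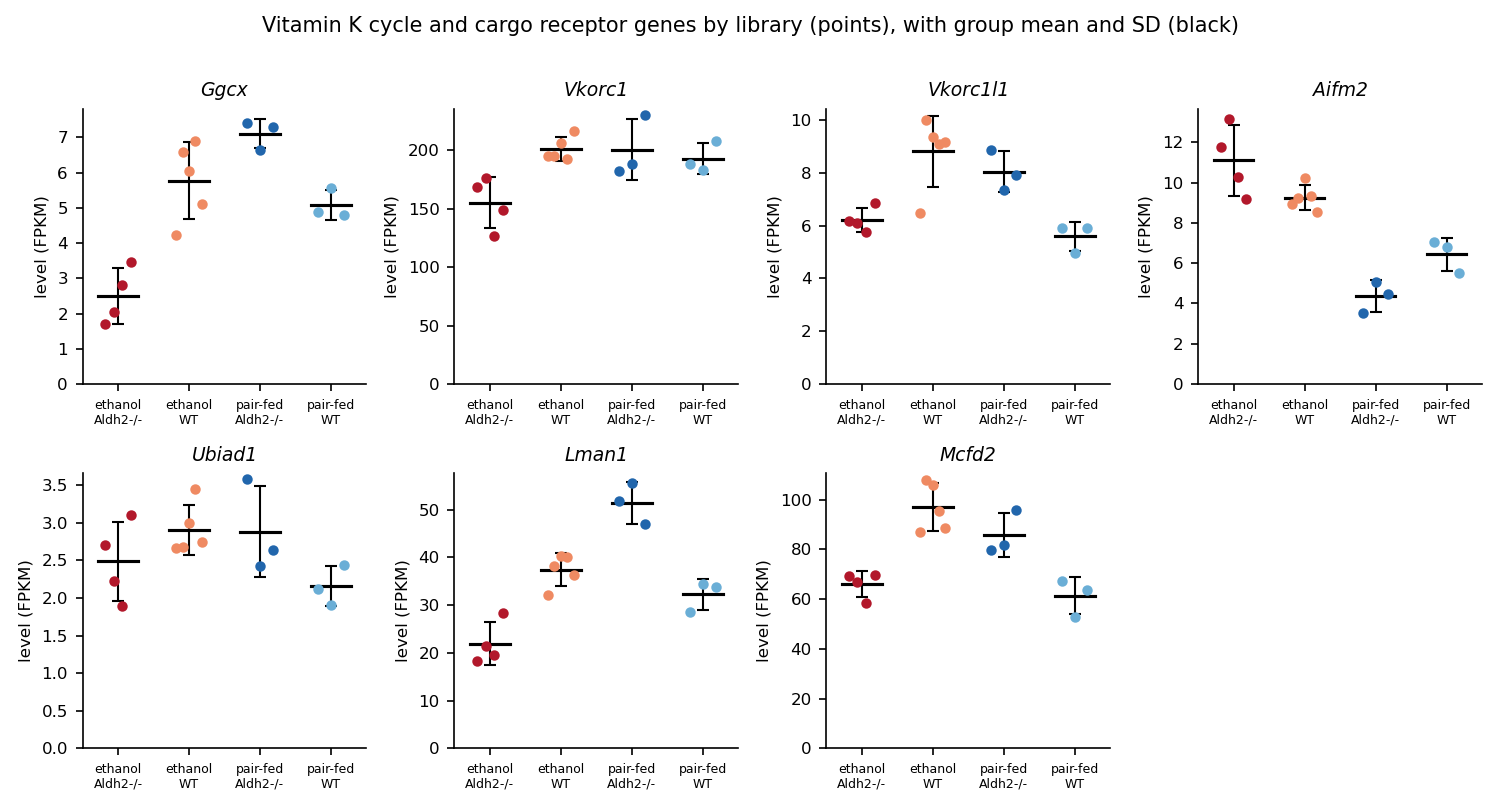
FPKM of the 7 genes of the vitamin K cycle and of factor transport in each of the 15 libraries (points), with the group mean and SD (black); every axis starts at 0. Ggcx, Lman1 and Mcfd2 are lower in ethanol-fed Aldh2-/- than in ethanol-fed WT livers and higher in pair-fed Aldh2-/- than in pair-fed WT livers, without overlap in either diet.

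Other hepatocyte coagulation genes gave 1 rise (Fgl1, a fibrinogen-like protein, 1.24 ± 0.26, adjusted p = 0.00488) and 1 fall (Proz, -0.33 ± 0.11, adjusted p = 0.0351) among 7 on ethanol, and 3 rises pair-fed (Fgl1 1.67, Serpina10 1.17 and Pzp 1.13). The haemostasis genes of vessels, platelets and other cells were higher in 12 of 18 on ethanol, with Serpine2 (1.56), Itgb3 (1.51) and Plaur (1.22) leading by p, and F3 (tissue factor) was the 1 fall (-0.76). Pair-fed, 4 of 16 were higher and 0 lower, near the 26.0% of all genes called higher there, beside 21.5% on ethanol. Of 12 other complement genes 7 were higher on ethanol and 1 lower, led by C1qb (1.91), C1qa (1.79) and C1qc (1.70), which macrophages make, with C1rl lower (-1.02). Of 9 complement receptors 6 were higher, among them Cd93 (1.74), C5ar1 (1.47) and Vsig4 (1.77), and Cd59a was lower (-0.61). Pair-fed these lists gave 5 of 13 (C1qc 0.90, C1qb 0.86 and C1qa 0.73 among them) and 1 of 10 (Cr1l, 0.62), all higher. After median-ratio rescaling the pair-fed calls of these last 3 lists were 0 higher and 0 lower, 0 and 1, and 0 and 0, while on ethanol they were 12 and 1, 8 and 1, and 6 and 1. Of the genes of these lists called higher on ethanol, Vwf, Plau, Procr, C7 and Itgax averaged under 0.5 FPKM in ethanol-fed WT. They passed the 0.5 FPKM limit on the mean of both groups only through the Aldh2-/- livers, which favours a call of higher. Macrophage, endothelial and stellate cell markers were higher in the same ethanol-fed Aldh2-/- livers, and the part of these cells was not tested.

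Acute phase genes outside the module were mostly higher in pair-fed Aldh2-/- livers, with 13 of 18 called higher and 1 lower (Hamp, hepcidin, -1.42 ± 0.13, adjusted p = 0.00279). Over all genes, 26.0% were called higher pair-fed and 21.5% on ethanol. By p the first pair-fed were Apcs (serum amyloid P, 1.97), Lcn2 (3.06) and Itih4 (1.18). On ethanol 4 were higher (Serpina3n 1.11, Hamp 1.03 and Lcn2 1.84 first) and 2 lower (Saa4 -1.52 first), and in the interaction 1 was higher (Hamp, 2.44) and 8 lower, Itih4 first (-1.45). Median-ratio rescaling changed the pair-fed split of this list to 2 higher and 3 lower and that of the interaction to 2 and 3, and left the ethanol split at 4 and 2. Among 20 other secreted hepatocyte proteins the calls went both ways, 3 higher and 2 lower on ethanol (Serpina3k 1.14, Apob -0.68, Serpina6 -1.41) and 5 higher and 4 lower pair-fed (Agt -0.65, Trf 0.81, Ambp 0.84, Apoa2 -0.61), the latter 0 higher and 5 lower after median-ratio rescaling. A list of 17 regulators held transcription factors and also receptors and signalling genes that do not bind promoters themselves. Of these 17, 5 were higher on ethanol and 4 lower, with the receptor Il1r1 at 1.22, Cebpd at 1.71, the receptor Il6st at 0.55 and Cebpa, a hepatocyte factor, at -1.01. Pair-fed, 1 was called (the glucocorticoid receptor Nr3c1, 0.48), and 0 after any of the 3 rescalings.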

How the data were processed

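RNA was extracted from whole liver of 15 mice with TRIzol and sequenced as paired reads, per the labels' protocols. The submitters' processing notes name fastp, HISAT2, HTSeq and the mm10 build, without versions. The authors deposited FPKM values in 2 tables, 1 per diet, of 23509 genes each; the steps from counts to FPKM are not given in the sources used here.

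FPKM values were taken as log2(FPKM + 1), genes with a mean under 0.5 FPKM in the libraries compared were left out, and limma 3.58.1 in R 4.3.3 (empirical Bayes with a trend) was fitted to all remaining genes, with Benjamini-Hochberg adjustment over all of them. Log2 differences are on the log2(FPKM + 1) scale, which understates those of low genes; folds are ratios of mean FPKM. Genotypes were compared within a table. The interaction and the diet comparisons used 1 fit of all 4 groups, in which an offset between tables cancels only in the interaction. Counts behind the values are not used here; 98.9% of 18887 low values were whole multiples of a per-library step (tolerance 0.01 of a step), which gave the relative depths. The script was tested on simulated data. Members and lists were chosen with earlier results of these data known. Described were called members (at most 6 per role and direction), a panel of F2, F7, Fgb, Serpinc1, Plg, C3, Hc and Mbl2, and up to 4 called genes per pathway list by p (1 such gene is not reported here); library values were given for members called in the interaction and those of largest change in each class. Coordinates are from GENCODE (GRCm38) and promoters from RefSeq (GRCm38.p6). Figures used Python 3.11.15 and matplotlib 3.10.9.

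As alternatives, the pseudocount was set to 0.1, the filter dropped or raised to 2 FPKM, and the fits repeated with median-ratio, quantile and common-sum scaling, library weights, a joint fit, a replicate block, and without single libraries.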

Additional observations from a re-analysis of the deposited data

Results flagged for a closer look

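In groups of 4 or 5 libraries, the gap of the highest or lowest value to its neighbour was compared with Dixon's limit for each of the 40 members, and 6 of the 80 groups passed it; chance flags about 1 in 20 groups. WT 5 on ethanol accounted for 5 of them. Plg was 518 FPKM there, with the nearest ethanol-fed WT liver at 776 FPKM. Serpinf2 was 284 FPKM (nearest 365 FPKM), Cfb 369.5 FPKM (nearest 434 FPKM) and Hc 57.2 FPKM (nearest 81.7 FPKM). Vtn went the other way, with 1973 FPKM (nearest 1724 FPKM). The sixth was Plg in ethanol-fed Aldh2-/- 96, with 808 FPKM (nearest 603 FPKM).

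The genotype difference itself differed between diets by the limma interaction for 9 members. Pros1 was the positive one, at 1.16 on the log2 scale. Fga was at -1.40, Serpind1 at -1.38, Mbl2 at -1.26, Serpinf2 at -0.84, C4bp at -0.74, Cfi at -0.67, Klkb1 at -0.62 and Cfb at -0.45. The adjusted p-values stand beside these genes in the text above.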

How the results depend on the processing

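The number of members called between genotypes pair-fed (15) was 5 with no filter, 3 after median-ratio rescaling, 5 after quantile normalization and 24 with library quality weights, and 1 to 14 when a library was left out. The interaction count (9) was 5 with no filter, 5 after median-ratio rescaling, 19 with weights, 15 without WT 5 and Aldh2-/- 90, and 4 to 13 when a library was left out. The WT diet count (24) was 15 after median-ratio rescaling and 15 to 25 when a library was left out; the other 88 counts stayed within 1.5 times the reported one.

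Among values of named genes, 1782 kept direction and call, 245 lost the call, 26 gained it and 20 changed sign, none of them called. Between genotypes on ethanol, F2 was -0.0203 after quantile normalization. Pair-fed, F7 was -0.18 and -0.16 after median-ratio and quantile scaling, F2 -0.10 and Plg -0.0365 after median-ratio rescaling, and Serpinc1 -0.30, -0.0351 and -0.0544 after median-ratio, quantile and common-sum scaling. In the interaction, median-ratio rescaling gave 0.23 for F2 and 0.25 for Serpinc1, and for diet in WT -0.0728 for Serpinc1 and -0.0347 for Hc. When a library was left out, Serpinc1 pair-fed ranged from -0.0499 (without Aldh2-/- 9) to 0.114, and the F2 interaction from -0.28 to 0.0262 (without Aldh2-/- 90; 0.0037 without Aldh2-/- 9). For diet in Aldh2-/-, Serpinc1 ranged from -0.0564 (without Aldh2-/- 2; also below 0 without Aldh2-/- 89 or 1) to 0.107 and Plg from -0.0681 (without Aldh2-/- 96; also below 0 without Aldh2-/- 2) to 0.1404. The cause of these changes was not tested.

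A fit with the replicate number as a block (replicate block) called 4 members higher and 2 lower on ethanol (with Fgg called in place of Kng2), 13 higher and 0 lower pair-fed, and 1 higher and 7 lower in the interaction. Deviations of same-numbered libraries correlated at -0.09 to 0.24 on ethanol and -0.02 to 0.03 pair-fed, and 1 of the ethanol pairs and 0 of the pair-fed pairs correlated best with its own number. No paired analysis was possible for the diet comparisons because a block within each diet takes up the difference between diets.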
